A study of Mus musculus with 8 samples.

Results

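The GATA transcription factors of the mouse, Gata1 to Gata6, were described in the posterior part of Cdx2 null and wild type embryos. Every non-control probe that carries one of these 6 gene names was used, which gave 10 of the 41174 non-control probes of the array. Of these 10 probes, 7 were bright enough to be tested, and they stand for 5 of the 15489 genes with such a probe. Gata1 was the gene without one. The members were chosen by family name and not by a measured value.

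GATA factors bind DNA through zinc fingers that read a core of the letters GATA, and they act with partner proteins such as the Friend of GATA cofactors. Gata1, Gata2 and Gata3 are best known from blood, Gata1 in red cells and Gata2 in blood progenitors and endothelium. Gata3 also acts in trophoblast, surface ectoderm and the nephric duct. Gata4, Gata5 and Gata6 are best known from the heart and from gut and extraembryonic endoderm. Cdx2 is a caudal homeobox factor that the embryo needs to extend its posterior axis.

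The groups were Cdx2 null mutant embryos and wild type embryos of the strain C57Bl6J/CBA, each at 4/5 and at 7/8 somites. The tissue was cut at equal axial levels, with the newest somite border and the allantois base as landmarks. Each genotype had 20 embryos at each stage, and each such set is taken here as 1 pool. The null and wild type pools of a stage were hybridised together on 4 dual-colour Agilent arrays, 2 with the null pool in the dye Cy3 and 2 with it in Cy5, which made 8 arrays on 2 slides. How the null allele was made and how these embryos were carried past implantation are not given in the sources used here. The 4 arrays of a stage share the same RNA, so their SD is technical and each stage is 1 replicate.

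Cdx2 itself was lower in the null pools on all 8 arrays, with a mean log2 ratio of -1.23 at 4/5 and -1.55 at 7/8 somites. Of all probes, 46.5% to 58.9% were well above background in a channel. Within a stage, ratios correlated at 0.856 to 0.918 between arrays of equal dye order and at 0.477 to 0.516 between swapped ones. All 9 posterior embryo markers were well above background in both channels of all 8 arrays. A log2 ratio is always null over wild type below. A log2 level is a normalized channel intensity, which is compared between pools for 1 probe or for the sum over 1 gene list. Such a sum adds linear levels, so the brightest genes of the list weigh most.

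The probes are 60 bases long, and the first 30 bases are printed in lower case for tested probes of Gata2, Gata3, Gata4 and Gata5, because these are letters that the values below rest on. Positions are those of the scanner files, in mouse build mm9.
Gata2, probe A_51_P516625: ctagtacccgcataagagaagaatcggcag
Gata2, probe A_52_P233441: aactgcataagcttaacccgctgatgagtg
Gata3, probe A_52_P546363: ataaactagattgctttcagttgacttaag
Gata4, probe A_51_P492355: gaagcccaccttggctgcaagcacagcaca
Gata5, probe A_51_P213260: cacagctgtgcacaaggtcatagcaccatg
The first Gata2 probe lies at chr6:88156835-88156894 and the second at chr6:88156362-88156421, both on the plus strand. The Gata3 probe lies at chr2:9778983-9779042 and the Gata5 probe at chr2:180060223-180060282, both on the minus strand. For the Gata4 probe the files list only 22 bases, chr14:63817752-63817773 on the minus strand. Which exon or transcript end these positions fall in was not analysed here, since no annotation of that build was used.

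Across both stages, 3 of the 5 measured GATA genes were higher in the null pools and none was lower. The 3 were Gata6, Gata3 and Gata5, each by its brightest probe, at an adjusted p of at most 0.05 from limma over 21905 probes. Over all probes 4.94% were called higher and 3.48% lower. The count of 3 rests on 7 tested probes of 5 genes, and 1 of the other probes (Gata2) had an unadjusted p under 0.05 in the lower direction. Gata6 was the one GATA gene called in 5 of the 8 fits that left out 1 array (arrays 2, 3 and 4 of 4/5 and arrays 2 and 4 of 7/8 somites). The count was 0 without background correction, without the filter on dim probes and with the null pool in Cy3 alone, with 3 GATA genes higher in each at an unadjusted p under 0.05 (Gata4 in place of Gata5 in the last). No GATA probe reached a 2-fold difference with 1 sign on all 4 arrays of a stage, which 0.292% of probes did at 4/5 and 0.415% at 7/8 somites. In pooled tissue, fewer cells of a type and less RNA per cell cannot be told apart.

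**Figure D1:**
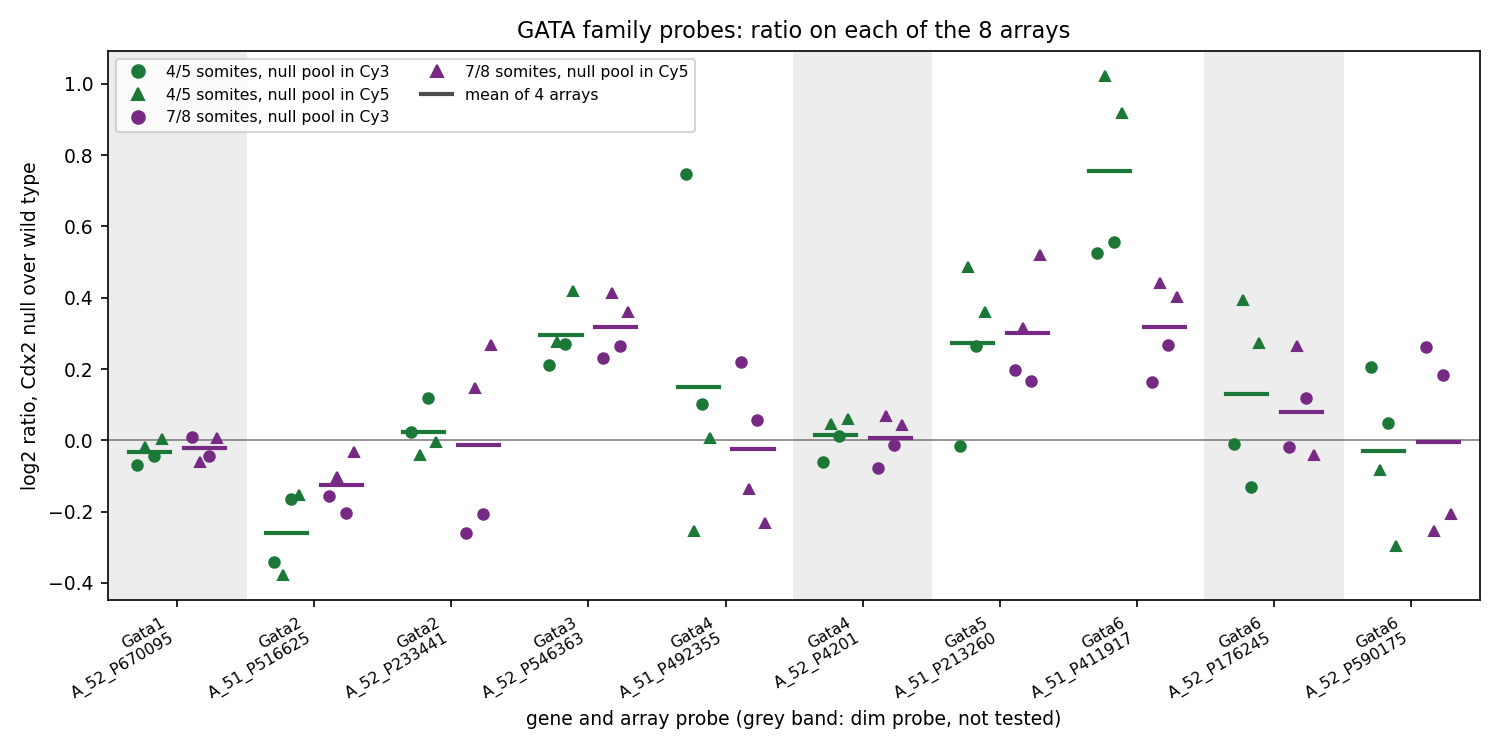
Log2 ratio of each GATA probe, null over wild type, on each of the 8 arrays, by stage (colour) and by the dye of the null pool (shape), with a bar at the mean of 4 arrays. The Gata6 probe A_51_P411917 and the Gata3 probe are above 0 on all 8 arrays, and the Gata2 probe A_51_P516625 is below 0 on all 8.

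Gata6, a factor of extraembryonic endoderm, gut endoderm and heart, had the largest ratio of the 7 tested probes in the reported fit. With the scanner's processed signals the Gata5 ratio was larger, at 0.74 against 0.61 for Gata6. By its brightest probe, A_51_P411917, the log2 ratio at 4/5 somites was 0.53, 1.02, 0.56 and 0.92 on arrays 1 to 4. At 7/8 somites it was 0.16, 0.44, 0.27 and 0.40. All 8 arrays had the same sign, as had those of 18.6% of all probes, and the ratios of the 2 stages did not overlap. The mean over both stages was 0.54 (SE 0.10, limma adjusted p = 0.00251), a 1.45-fold difference.

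The Gata6 ratio was smaller at the later stage, with means of 0.76 ± 0.25 at 4/5 and 0.32 ± 0.13 at 7/8 somites (SD of 4 arrays). The stages differed by -0.44 without a test, since each has 1 pair of pools, and 18.4% of all probes had ratios that did not overlap between stages. The ratio also followed the dyes within each stage, at 0.54 with the null pool in Cy3 and 0.97 in Cy5 at 4/5 somites, and at 0.22 and 0.42 at 7/8 somites. With the null pool in Cy3 alone the call was lost (mean 0.38, adjusted p = 0.0864), while on each slide alone it was kept (adjusted p = 0.00266 and 6.52e-05).

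The other 2 Gata6 probes gave no called ratio. Probe A_52_P590175, of 80.0% GC, was close to background and gave a mean ratio of -0.02 (adjusted p = 0.951). Its sign followed the dye, with 0.13 and 0.22 with the null pool in Cy3 and -0.19 and -0.23 in Cy5 at the 2 stages. Probe A_52_P176245 was well above background in the null pools on 2 of 4 arrays at each stage. In the wild type pools it was so on none, the probe was not tested, and no fold is given for it. The null pool was higher for this probe on 4 of 8 arrays. Its ratio was -0.07 with the null pool in Cy3 and 0.33 in Cy5 at 4/5 somites, and 0.05 and 0.11 at 7/8 somites. With the 2 tested Gata6 probes averaged, the mean ratio was 0.26 and the call was lost (adjusted p = 0.0762).

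The level of Gata6 by probe A_51_P411917 differed between stages in the null pools. In null pools the log2 level was 10.09, 10.30, 10.22 and 10.15 at 4/5 somites and 9.66, 9.99, 9.75 and 9.87 at 7/8 somites, so that the arrays of the 2 stages did not overlap. In wild type pools it was 9.57, 9.28, 9.66 and 9.23 at 4/5 somites and lay between 9.47 and 9.55 on the 4 arrays of 7/8 somites, within the same range. The difference of 7/8 minus 4/5 somites was -0.37 in null and 0.06 in wild type pools, with no test. Of all probes, 9.13% were lower at 7/8 somites without overlap in null pools and 11.3% higher, against 10.1% lower and 8.54% higher in wild type pools.

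**Figure D2:**
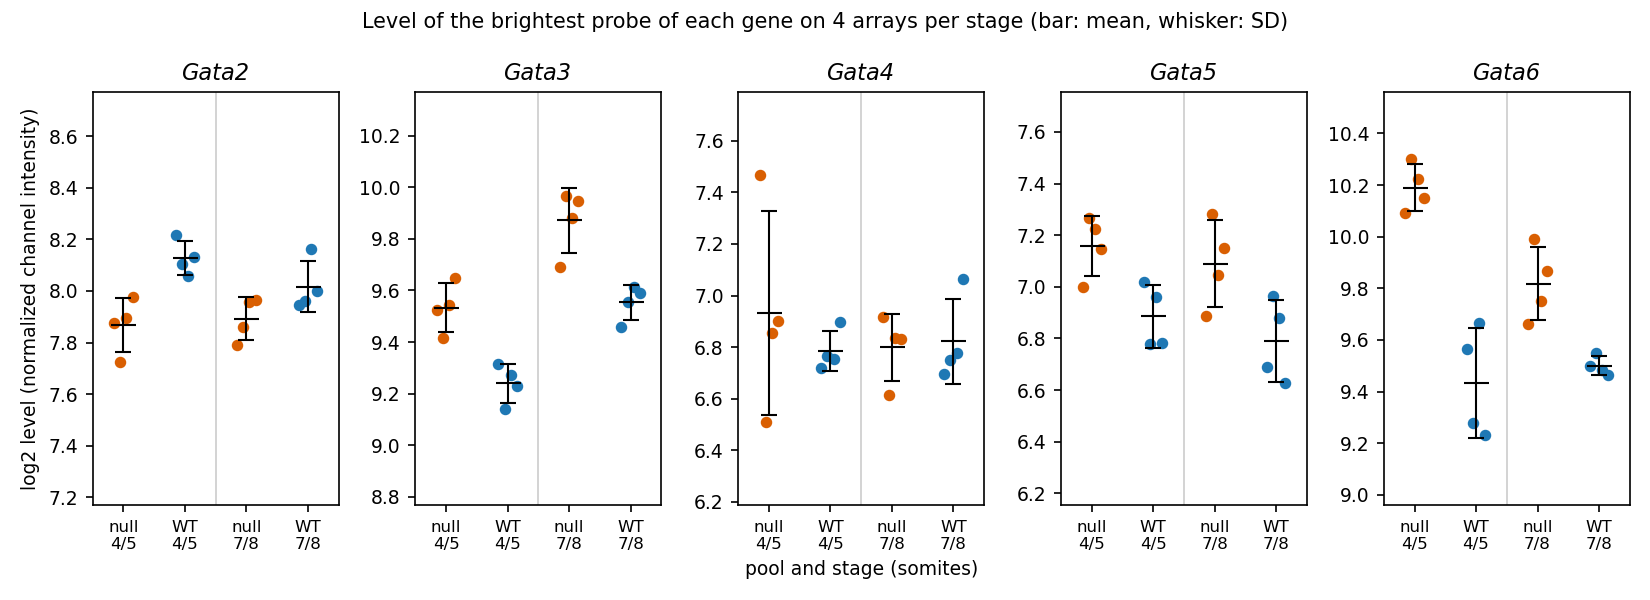
Log2 level of the brightest probe of 5 GATA genes in the null and wild type pools at 4/5 and 7/8 somites, with points for the 4 arrays, bars at the mean and whiskers of 1 SD. Each panel has its own axis of the same length. The Gata6 level in null pools is 10.09 to 10.30 at 4/5 and 9.66 to 9.99 at 7/8 somites, and Gata3 is higher at 7/8 somites in both genotypes.

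Gata3, a factor of T cells, trophoblast, surface ectoderm and nephric duct, was higher in null pools by nearly the same ratio at both stages. On arrays 1 to 4 its log2 ratio was 0.21, 0.28, 0.27 and 0.42 at 4/5 somites. At 7/8 somites it was 0.23, 0.41, 0.26 and 0.36. All 8 arrays lay above 0, where 18.6% of all probes had 1 sign on all 8, and the stages overlapped. The mean was 0.31 (SE 0.08, limma adjusted p = 0.0326), a 1.24-fold difference.

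The level of Gata3 was also higher at the later stage in both genotypes. In null pools the log2 level averaged 9.53 ± 0.10 at 4/5 and 9.87 ± 0.13 at 7/8 somites, and in wild type pools 9.24 ± 0.07 and 9.55 ± 0.07 (SD of 4 arrays). Neither genotype's arrays overlapped between stages. Of all probes, 11.3% were higher at 7/8 somites without overlap in null and 8.54% in wild type pools. The difference of 7/8 minus 4/5 somites was 0.34 in null and 0.31 in wild type pools, with no test. The null level at 4/5 somites and the wild type level at 7/8 somites overlapped, at 9.42 to 9.65 and 9.46 to 9.61. The Gata3 ratio call was lost in 5 of the 8 fits that left out 1 array (arrays 2, 3 and 4 of 4/5 and arrays 2 and 4 of 7/8 somites), with adjusted p of 0.0523 to 0.100.

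Gata5, a factor of heart and gut endoderm, had a ratio like that of Gata3 with more scatter. Its log2 ratio was -0.02, 0.49, 0.26 and 0.36 on arrays 1 to 4 at 4/5 somites. At 7/8 somites it was 0.20, 0.32, 0.17 and 0.52. The null pool was higher on 7 of 8 arrays, and the wild type pool was well above background on 3 of 4 arrays at 7/8 somites. The mean was 0.29 (SE 0.08, limma adjusted p = 0.0457), a 1.22-fold difference.

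The Gata5 signal was dim, with a log2 level of 7.16 ± 0.12 in null and 6.89 ± 0.12 in wild type pools at 4/5 somites, and of 7.09 ± 0.17 and 6.79 ± 0.16 at 7/8 somites (SD of 4 arrays). The levels of the stages overlapped in both genotypes. With the scanner's processed signals, which add no offset to dim spots, the mean ratio was 0.74 (adjusted p = 0.000496). The call was lost in 6 of the 8 fits that left out 1 array (arrays 2, 3 and 4 of 4/5 and arrays 1, 2 and 4 of 7/8 somites), with adjusted p of 0.0573 to 0.147.

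**Figure D3:**
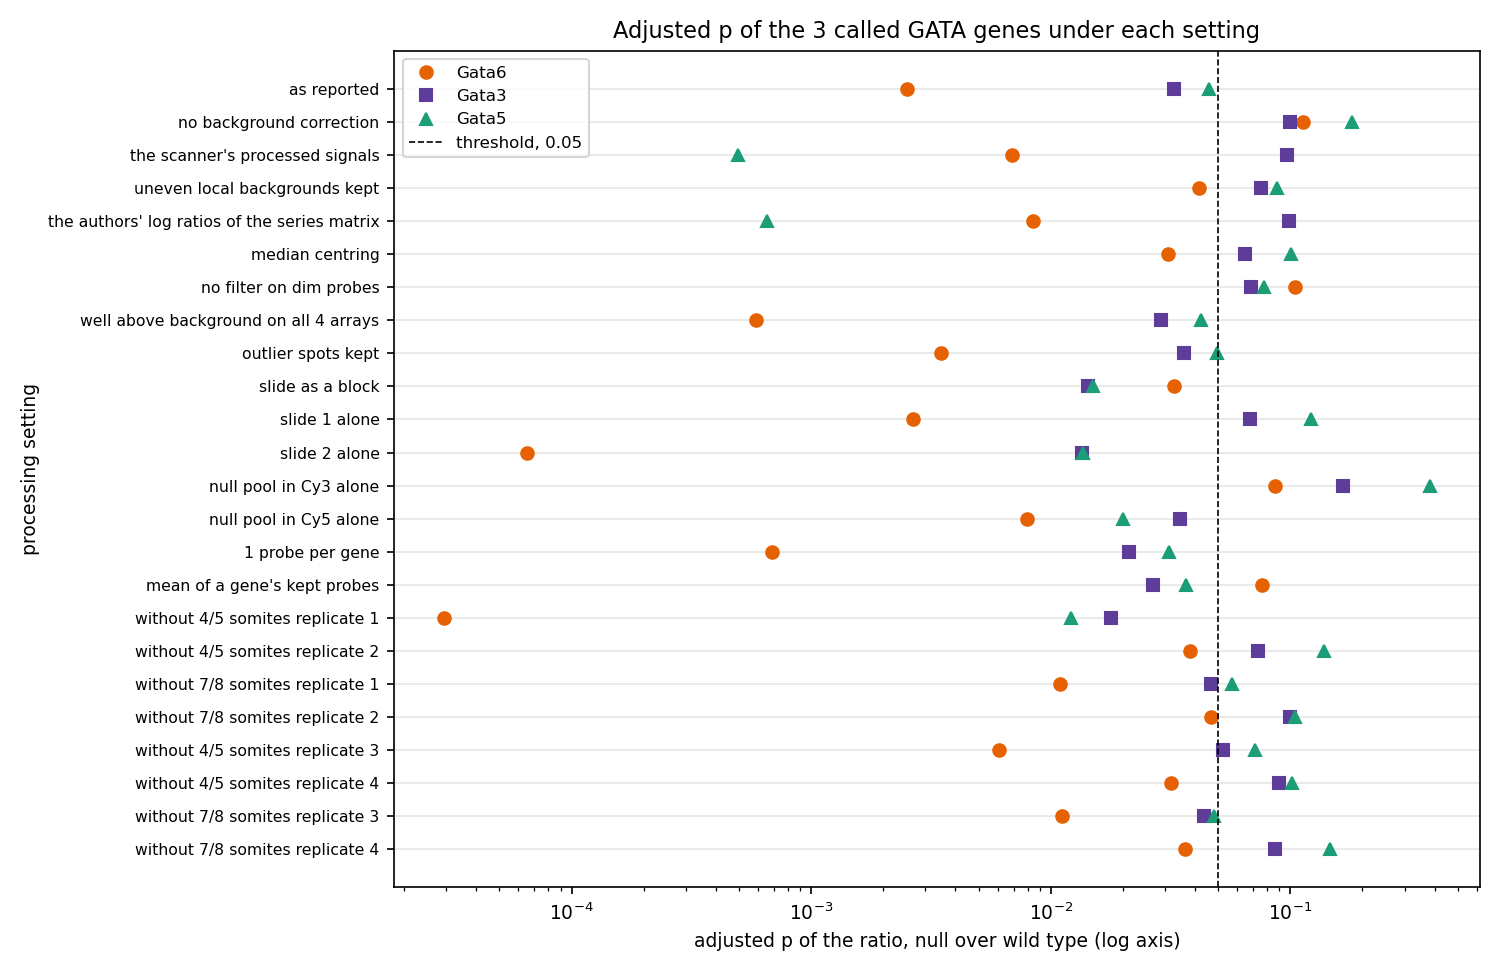
Adjusted p of the Gata6, Gata3 and Gata5 ratios on a log axis under the reported processing and each alternative, with the threshold of 0.05 as a dashed line. Gata6 lies left of the line in all but 4 alternatives, Gata3 in 10 and Gata5 in 11 of 23.

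Gata2, which blood progenitors and endothelium need, did not pass the test with either probe. For probe A_51_P516625 the log2 ratio was -0.34, -0.38, -0.17 and -0.15 at 4/5 somites and -0.16, -0.10, -0.20 and -0.03 at 7/8 somites. All 8 arrays lay below 0, with a mean of -0.19 (SE 0.09, adjusted p = 0.211). Its log2 level at 4/5 somites was 7.72 to 7.98 in null and 8.06 to 8.22 in wild type pools. At 7/8 somites it was 7.79 to 7.96 and 7.95 to 8.16, with no test.

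The second Gata2 probe, A_52_P233441, gave a mean ratio of 0.01 (SE 0.08, adjusted p = 0.988). At 7/8 somites its ratio was -0.23 with the null pool in Cy3 and 0.21 in Cy5, so the sign followed the dye order. The 2 probes are of similar GC content, 38.3% and 40.0%, and the difference between them was not tested.

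Gata4, a factor of heart and primitive endoderm, had no ratio beyond the scatter of its arrays. Probe A_51_P492355 gave 0.75, -0.26, 0.10 and 0.01 at 4/5 somites and 0.22, -0.14, 0.06 and -0.23 at 7/8 somites. The value of 0.75 on array 1 of 4/5 somites stood apart, and the mean over both stages was 0.06 (SE 0.09, adjusted p = 0.779). Its log2 level was 6.51 to 7.47 in null and 6.72 to 6.90 in wild type pools at 4/5 somites, and 6.61 to 6.92 and 6.70 to 7.06 at 7/8 somites. The second Gata4 probe, A_52_P4201, which has 10 spots on each array, was not well above background in either pool on any array.

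Gata1, the red cell factor, was near background. Its probe A_52_P670095, at chrX:7536849-7536908 on the minus strand with 10 spots on each array, was well above background in the null pool on 1 of 4 arrays at each stage, and in the wild type pool on none at 4/5 and on 1 at 7/8 somites. The probe was not tested, and no fold is given for it.

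The ordering of the ratios over both stages was Gata6, Gata3, Gata5, Gata4 and Gata2, from 0.54 to -0.19, in the reported fit. The order differed under other settings. With processed signals the ratios were 0.74 for Gata5, 0.61 for Gata6 and 0.35 for Gata3. With the kept probes of a gene averaged, Gata6 was at 0.26, below Gata3 at 0.31. With the null pool in Cy3 alone, Gata4 was at 0.28, above Gata3 at 0.24 and Gata5 at 0.15. Gata3 and Gata5 differed by less than the SE of either, and the ratios of 0.06 for Gata4 and -0.19 for Gata2 did not pass the test. The differences between these genes were not tested. Over 8 values for each gene (4 pools, each on 2 dye swap pairs that share its RNA), the level of Gata6 correlated with that of Gata5 at 0.90 and with that of Gata2 at -0.79. Gata3 correlated with Gata6 at 0.40. These values describe 4 pools only.

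By the same measure, the genes whose levels ran most like Gata6 were Pcdh8 (r = 0.99), Padi3 (0.99) and Fbxl5 (0.99). Their log2 ratios were 1.37, 0.49 and 0.52 at 4/5 somites and 0.42, 0.24 and 0.26 at 7/8 somites. These genes were picked for their likeness over the same pools, so their ratios add no separate evidence. An r above 0.9 was found for 226 of 3154 candidate genes with Gata6 and for 438 of 9455 with Gata5. It was found for 230 of 4630 with Gata3, 56 of 11468 with Gata2 and 2 of 12993 with Gata4. Candidates had to span a set share of the member's own span, so their number differed by member. For Gata3 the genes whose levels ran most like it were Tab1, Lbx2 and Cdc123 (r = 0.98 to 0.99). For Gata5 they were Igfbp1, Acp5 and Rasl11a (r = 0.99). For Gata2 they were Vps33a, Copz1 and Phykpl (r = 0.97 to 0.99). For Gata4, Slc52a2 (r = 0.97) and Cdk19 (r = 0.96) were among them.

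RefSeq promoter windows in build GRCm38.p6 were used for 4 of the 6 members, Gata1, Gata2, Gata3 and Gata5. Gata6 was left out of this step and is not reported here. The 250 bases before the start are printed for Gata3 and Gata5, which were called in the same direction, and for Gata1, which was near background. Capitals mark CpG, a C followed by a G.
Gata3, chr2:9878601-9878850, minus strand: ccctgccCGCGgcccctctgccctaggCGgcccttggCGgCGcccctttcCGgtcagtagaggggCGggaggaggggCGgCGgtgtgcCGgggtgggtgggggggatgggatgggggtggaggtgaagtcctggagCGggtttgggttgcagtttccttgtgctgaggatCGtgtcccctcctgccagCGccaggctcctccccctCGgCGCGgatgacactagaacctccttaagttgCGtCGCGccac
Gata5, chr2:180334680-180334929, minus strand: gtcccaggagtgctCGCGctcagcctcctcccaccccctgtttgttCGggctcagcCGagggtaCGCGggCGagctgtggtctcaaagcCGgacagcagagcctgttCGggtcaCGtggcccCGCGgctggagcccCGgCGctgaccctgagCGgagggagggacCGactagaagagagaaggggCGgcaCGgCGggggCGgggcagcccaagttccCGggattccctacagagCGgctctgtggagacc
Gata1, chrX:7967911-7968160, minus strand: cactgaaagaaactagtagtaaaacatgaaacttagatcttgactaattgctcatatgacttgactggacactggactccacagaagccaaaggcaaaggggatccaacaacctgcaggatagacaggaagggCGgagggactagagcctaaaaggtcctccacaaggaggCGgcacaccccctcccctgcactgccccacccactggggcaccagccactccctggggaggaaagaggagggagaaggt
The Gata3 window holds 19 CpG and the Gata5 window 22, against 2 in the Gata1 window and 22 and 24 in the 2 windows of Gata2, which was not called, with a median of 6 over 32851 windows of the same length. At least as many CpG as in the Gata3 window stood in 19.7% of all windows, and at least as many as in the Gata5 window in 14.8%. Neither the GATA letters AGATAA, with T also allowed first and G last, nor the CDX letters ATTTATA, with C also allowed first and G last, were found on either strand in the 5 windows of the 4 genes. A window without a match says only that these letters are not in it. Of all windows, 26.5% held one of the GATA forms and 11.3% one of the CDX forms.

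Genes that encode other proteins with a GATA-type zinc finger, such as Trps1 and the Mta genes, were not called. Of the 8 measured, none was higher and none was lower by limma, with 0 higher and 1 lower at an unadjusted p under 0.05. Their median log2 ratio was -0.09, against -0.01 over all genes. Over all 15489 genes, each by its brightest probe, 5.62% were higher and 3.66% lower.

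Of 10 measured partners of GATA factors in blood and endothelium, 1 was higher and none was lower. It was Zfpm1, the Friend of GATA cofactor that Gata1 uses, with a log2 ratio of 0.27 at 4/5 and 0.34 at 7/8 somites (mean 0.30, SE 0.08, adjusted p = 0.0367). Of 7 measured partners in heart and mesoderm, 1 was higher and none was lower. It was the heart T-box factor Tbx20, with a mean log2 ratio of 0.31 (SE 0.08, adjusted p = 0.0285), though it was well above background in wild type pools on only 2 of 8 arrays. At an unadjusted p under 0.05, 2 of the blood partners were higher and 3 lower, and 3 of the heart partners were higher and 1 lower.

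Gata1 and Gata2 act in the blood and vessel lineages. Of 12 erythroid genes none was higher and 1 was lower, the embryonic globin Hbb-bh1, with log2 ratios of -0.56 at 4/5 and -0.22 at 7/8 somites (mean -0.39, adjusted p = 0.0165). This is 8.33% lower, against 3.66% over all genes, and rests on 1 gene. Of 12 haemangioblast and endothelial genes none was higher and 3 were lower. These were Etv2, a factor that starts both lineages, with a mean log2 ratio of -1.01 (SE 0.12, adjusted p = 2.95e-05), the receptor Kdr with -0.88 (SE 0.12, adjusted p = 0.000139) and the secreted protein Egfl7 with -0.40 (SE 0.09, adjusted p = 0.0128). At an unadjusted p under 0.05, no erythroid gene and 1 endothelial gene were higher. The summed log2 level of the 12 endothelial genes was 12.32 to 12.47 in null and 12.86 to 13.14 in wild type pools at 7/8 somites. The part of these cells in the Gata2 values was not tested.

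Gata4 to Gata6 are known from extraembryonic endoderm and gut, and Gata3 from surface and trophoblast epithelium. Of 15 visceral and parietal endoderm genes 6 were higher and none was lower, with a median log2 ratio of 0.23. The largest ratios were those of the uptake receptor Cubn (1.18, SE 0.09, adjusted p = 4.17e-07), of its partner Amn (0.97) and of the lipid carrier Apoe (0.96). The summed log2 level of all 15 was 15.34 to 15.45 in null and 14.65 to 14.71 in wild type pools at 4/5 somites, and 14.80 to 14.81 and 14.13 to 14.23 at 7/8 somites. All 15 were measured, and 9 were not called, with mean log2 ratios from -0.17 (Afp) to 0.29. Afp was at 0.48 at 4/5 and at -0.82 at 7/8 somites.

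Of 13 surface ectoderm and trophoblast genes 7 were higher and none was lower, with a median log2 ratio of 0.34. The largest were the basal keratin Krt5 (0.92, SE 0.08, adjusted p = 2.97e-06), the ligand Wnt6 (0.61) and the placental hormone Prl3d1 (0.58). The other 6 were not called, with mean log2 ratios from -0.12 (Trp63, below 0 on all 8 arrays) to 0.25. The summed log2 level of the 13 genes was 16.25 to 16.40 in null and 15.92 to 16.14 in wild type pools at 4/5 somites. At 7/8 somites it was 16.48 to 16.69 and 15.94 to 16.09. No gene of the last 2 lists had an unadjusted p under 0.05 in the lower direction. The sums of both lists were higher in null pools at both stages. They follow their brightest genes most, Apoe in the first list (mean log2 intensity 13.64) and Krt18 and Krt8 in the second (15.29 and 14.76). The part of these tissues in the GATA ratios was not tested.

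Of 13 gut endoderm genes 5 were higher and 2 were lower, with a median log2 ratio of 0.03. The largest ratios were those of the keratin Krt19, lower in null at -1.37 (adjusted p = 1.06e-07), the trypsin inhibitor Spink1, higher at 0.74 (adjusted p = 2.72e-05), and the signal Shh, lower at -0.60 (adjusted p = 0.000221). The summed log2 level of the list was 14.23 to 14.45 in null and 14.06 to 14.20 in wild type pools at 4/5 somites, and 14.00 to 14.09 and 13.81 to 13.88 at 7/8 somites.

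**Figure D4:**
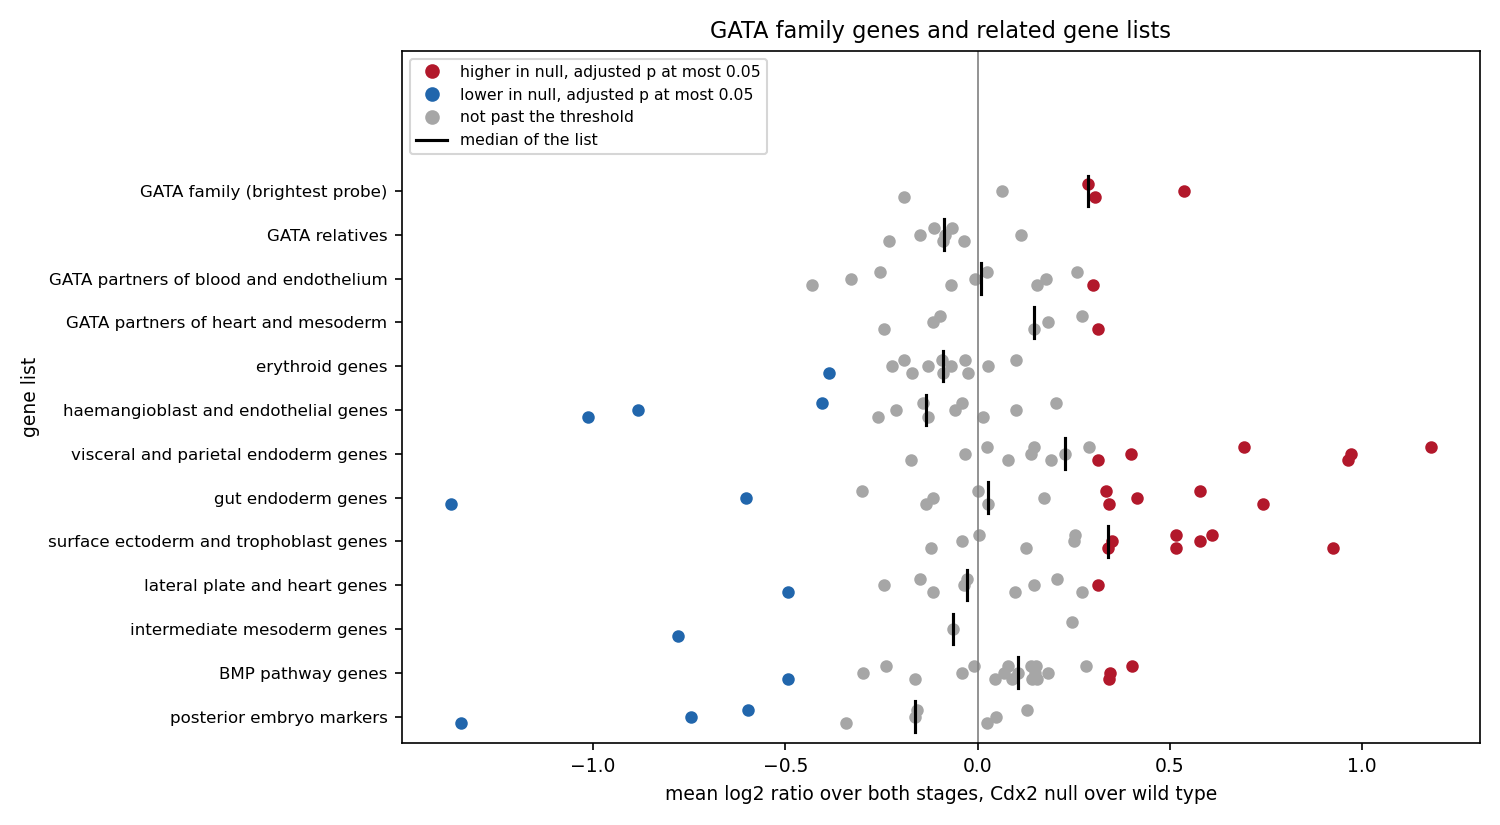
Mean log2 ratio over both stages, null over wild type, of the 5 measured GATA genes and of each gene of 12 related lists, with a black bar at each list's median. Points are red where a gene was called higher in null, blue where it was called lower and grey otherwise. The GATA row runs from -0.19 to 0.54 with 3 red points.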

How the data were processed

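The authors deposited 8 scanner files of dual-colour Agilent arrays with intensities (mean, local background and processed signals per spot) and a table of log10 ratios per array. Signals came from Agilent Feature Extraction, version 9.5.3 per the submitters' processing notes and 10.5.1.1 per the file headers. The deposited log10 ratios equal the scanner's on all 45018 spots (tolerance 1e-05), with the sign turned only on arrays with the null pool in Cy3. Their median is 0 on each array.

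Mean signals were background-corrected (normexp, offset 50, with an uneven local background replaced by the array's median), loess-normalized within arrays in limma 3.58.1 (R 4.3.3), turned to null over wild type and averaged over spots, with 1184 outlier spots (0.341%) left out. The offset draws the ratios of dim probes towards 0. Levels had Aquantile normalization between arrays. A probe was kept if well above background in 1 genotype on at least 3 of 4 arrays of a stage. The means of the 2 stages were tested with limma (two-sided, 1 residual degree of freedom, 14.9 prior degrees of freedom and a prior SD of 0.123), with Benjamini-Hochberg adjustment over 21905 probes and calls at 0.05. Nothing says that the 2 stages' pools were repeated, so p-values rest on the spread between stages. With 14.9 prior against 1 residual degree of freedom, that spread is mostly pooled over all probes and only in small part a probe's own.

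The processing settings, the members and the 12 gene lists were chosen with earlier results of these data known, the members by family name. Named by rule are all members, up to 3 called genes of each list with the largest absolute ratio, and Cdx2. Outside the rule, Afp, Trp63, Krt18, Krt8, Trps1 and the Mta genes are named too. The rule also names the 3 genes most correlated with each measured member among genes whose levels span at least 50% of its span. A gene that this rule names for Gata4 is not reported here. The fit was tested on simulated data. The alternatives changed background correction, normalization, filter, outliers, slides, dyes, probes per gene and single arrays. The number of arrays limits the precision.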

Additional observations from a re-analysis of the deposited data

How the results depend on the processing

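Gata6, Gata3 and Gata5 kept their direction under all 23 alternatives, with log2 ratios of 0.26 to 0.70, 0.24 to 0.39 and 0.15 to 0.74. The 0.26 of Gata6 is the mean of its kept probes, and its brightest probe alone gave 0.38 to 0.70. Gata2, by probe A_51_P516625 or by the mean of its kept probes, stayed below 0 and uncalled in all 23. The probe alone gave -0.25 to -0.14 and the mean of kept probes -0.09. Without background correction, Gata6 (0.51, adjusted p = 0.113), Gata3 (0.29) and Gata5 (0.20) lost their calls, with 345 probes and 0 GATA genes called against 1845 probes and 3 GATA genes. With the null pool in Cy3 alone Gata6 (0.38), Gata3 (0.24) and Gata5 (0.15) lost theirs, with 0 GATA genes called. Without the filter all 3 lost theirs at the same ratios (0.54, 0.31 and 0.29), with 664 probes and 0 GATA genes called over 41174 tested. At an unadjusted p under 0.05 Gata3, Gata5 and Gata6 were higher without background correction and without the filter, and Gata3, Gata4 and Gata6 with the null pool in Cy3 alone.

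With uneven backgrounds kept, Gata3 (0.29) and Gata5 (0.28) lost their calls, with 812 probes and 1 GATA gene called. With median centring, Gata3 (0.39) and Gata5 (0.31) lost theirs, with 765 probes and 1 GATA gene called, and 78.3% of the called probes were higher, against 58.6% as reported. On slide 1 alone Gata3 (0.28) and Gata5 (0.25) lost theirs, with 1 GATA gene called. The scanner's processed signals and the authors' deposited log ratios each ended the Gata3 call at 0.35, and the mean of kept probes ended that of Gata6 at 0.26. With the slide as a block, 3110 probes were called and the 3 GATA genes kept their calls. That fit counts slides of a stage that share the same RNA as separate values, so its calls rest in part on technical spread. Its SE was 0.041 for Gata3 and 0.039 for Gata5, against 0.084 for each as reported. For Gata6 it was 0.104 against 0.101.

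Leaving out 1 array at a time gave ratios of 0.49 to 0.58 for Gata6, 0.28 to 0.32 for Gata3 and 0.25 to 0.34 for Gata5, with 942 to 2173 probes and 1 to 3 GATA genes called. Probe counts fell by over 1.5 times without arrays 2 and 4 of 4/5 (942 and 1062) and of 7/8 somites (964 and 1091). These are the arrays with the null pool in Cy5. Any fit without 1 array has unequal dye orders in that stage, so loss of an array and dye order are mixed. Gata6 was called in all 8 fits that left out 1 array (limma adjusted p of 2.92e-05 to 0.0468).

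The ratios of the other 3 tested probes changed sign. The Gata2 probe A_52_P233441 was at -0.013 without background correction, -0.064 with processed signals and with the authors' log ratios, -0.033 on slide 1, -0.080 with the null pool in Cy3, and -0.041 to 0.047 without 1 array. Gata4 probe A_51_P492355 was at -0.020 with uneven backgrounds kept, -0.017 on slide 2, -0.15 with the null pool in Cy5, and -0.036 to 0.13 without 1 array. Gata6 probe A_52_P590175 was at 0.033 on slide 1, 0.18 with the null pool in Cy3, and -0.061 to 0.027 without 1 array. The cause of these changes was not tested.

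Among differences of level between stages, Gata6 stayed lower at 7/8 somites in null pools (-0.38 to -0.26) and Gata3 higher in null (0.31 to 0.45) and wild type pools (0.28 to 0.43) under 5 alternatives each. No paired analysis was possible because the replicate numbers only name arrays that carry the same 2 pools, so a block on them has no second pair. Each stage has 1 pool of each genotype, and signals near background limit Gata1, Gata4, Gata5 and the dim Gata6 probes.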

Other observations

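Among 21 measured genes of the BMP pathway, which acts upstream of GATA genes in mesoderm, 3 were higher and 1 was lower, with a median log2 ratio of 0.10. The ligand Bmp4 was lower at both stages (-0.58 at 4/5 and -0.41 at 7/8 somites, mean -0.49, SE 0.09, limma adjusted p = 0.00161). The target genes Id4 (mean 0.40, SE 0.08, adjusted p = 0.00601) and Id3 (0.35, SE 0.09, adjusted p = 0.0188) were higher. Among 11 lateral plate and heart genes 1 was higher (Tbx20) and 1 was lower (Bmp4), with a median of -0.03.

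Of 3 measured intermediate mesoderm genes, where Gata3 is also known, 1 was lower and none was higher. It was Osr1, an early regulator of that tissue, with log2 ratios of -0.95 at 4/5 and -0.61 at 7/8 somites (mean -0.78, SE 0.09, adjusted p = 5.12e-05), and 1 of the other genes had an unadjusted p under 0.05 in the higher direction. Of 9 posterior embryo markers none was higher and 3 were lower. These were Hoxb9 (mean -1.34, SE 0.14), Cdx4 (-0.74, SE 0.10) and Msgn1 (-0.60, SE 0.10), and none of the 9 was higher at an unadjusted p under 0.05.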
